A study of Homo sapiens with 12 samples.

Results

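The comparison described here sets 3 libraries from cells given ipatasertib, an inhibitor of the AKT kinases, directly against 3 libraries from cells given tazemetostat, which inhibits EZH2, a histone methyltransferase. These are 6 of the 12 libraries of the study, taken by their treatment labels, and of 23228 genes in the files 14628 had enough counts in them to be tested. All libraries are polyadenylated RNA from SUM149PT, an established line from an inflammatory breast cancer, so every value refers to 1 cell line. Ipatasertib cells were kept in DMSO from day -5, and on day 0 received 5 µM ipatasertib in medium with 2% serum. Tazemetostat cells were kept in 5 µM tazemetostat from day -5 and on day 0 in the same low-serum medium. The 3 libraries with both inhibitors, called the combination below, had tazemetostat over the same days and ipatasertib from day 0, and the 3 DMSO libraries had neither. RNA of every group was collected 24 h after the day 0 change, with 250000 cells seeded on each plate the day before. The doses of the inhibitors were equal in µM, but tazemetostat had been present for days longer, so a difference between them is also a difference in exposure time. Nothing in the labels states that replicates A, B and C of a group were grown apart, and p-values thus cover the variation among these libraries only, some or all of which may be technical.

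AKT is a kinase at the centre of signalling from growth factor receptors through PI3K. When active it phosphorylates the FOXO transcription factors and keeps them out of the nucleus, it favours cyclin D1 and cell growth through mTOR, and it restrains autophagy; when it is blocked, FOXO factors return to the nucleus and switch on genes that slow growth and raise receptor signalling. EZH2 is the catalytic subunit of Polycomb repressive complex PRC2, which methylates a lysine of histone H3 and keeps developmental regulators and genes of other lineages silent. When it is blocked the mark is lost as cells divide, and genes that had been silent can be transcribed. In breast epithelium, both enzymes are known for their part in cell identity and in the growth of hormone receptor-negative tumours.

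Gene counts summed to 22355242 to 39001543 in the ipatasertib libraries and 43226082 to 49970540 in the tazemetostat libraries, so the depths of the compared groups did not overlap. They summed to 26024012 to 35417607 in the combination and 32470808 to 44924160 in DMSO libraries. The share of reads in no annotated gene was 24.6% ± 0.961 (SD, n = 3) with ipatasertib and 18.4% ± 0.501 with tazemetostat, and its part in the results was not tested. Tazemetostat A stood apart from its replicates, with a chi-square per degree of freedom of 18.4 to 20.2 against B and C, where B and C differed from each other by 3.33 and the ipatasertib pairs by 2.67 to 4.80. The first principal component of log2 expression held 86.2% of the variance of the 6 libraries and separated the inhibitors, and the second, with 5.29%, set tazemetostat A apart from B and C. The keratins KRT5, KRT14 and KRT17, the receptor EGFR and the epithelial adhesion genes CDH1 and EPCAM, which mark SUM149PT as a basal epithelial line, were above 1 CPM in all 6 libraries. The keratins were lower with ipatasertib, KRT5 by -1.67 (SE 0.06) and KRT17 by -1.72 (SE 0.06), with KRT14 given below. The same check set ESR1 and ERBB2 as low. They averaged 3.41 and 94.5 CPM with ipatasertib and 5.58 and 67.6 CPM with tazemetostat, so ERBB2 was well above 1 CPM. CPM is a count made relative to library size, which was adjusted here with TMM factors over all 12 libraries.

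With ipatasertib, 8778 of 14628 genes differed from tazemetostat at an adjusted p under 0.05 in edgeR's quasi-likelihood F-test after Benjamini-Hochberg correction, which is 60.0% of the genes tested. Of these, 4329 genes were higher with ipatasertib (29.6% of those tested) and 4449 were lower (30.4%), and such genes are named called below. A member list is read against these shares, which are those of all genes and varied with level. Of the 3657 tested genes with the lowest means, 855 were higher and 912 lower. Of the 3657 with the highest means, 1046 were higher and 1363 lower. The lists were not matched for level. Among called genes, 511 were more than 2-fold higher with ipatasertib (3.49% of those tested) and 855 were more than 2-fold lower (5.84%), and more than 4-fold apart were 50 and 333. The far end was thus uneven, and it lay at low levels. The 333 genes over 4-fold lower had a median of 0.142 CPM with ipatasertib, 1.19 CPM with tazemetostat, 0.939 CPM with the combination and 0.190 CPM with DMSO. Of them, 85.9% were under 1 CPM with ipatasertib. The 50 genes over 4-fold higher had a median of 3.37 CPM with ipatasertib, 0.569 CPM with tazemetostat, 2.52 CPM with the combination and 1.03 CPM with DMSO. Among the 333 genes, 240 passed the filter on low counts only through the tazemetostat libraries, and 19 of the 50 only through the ipatasertib libraries, so these had to differ. With all libraries thinned to the depth of the shallowest, 469 genes were over 2-fold higher and 699 over 2-fold lower, and 43 and 255 over 4-fold.

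**Figure D1:**
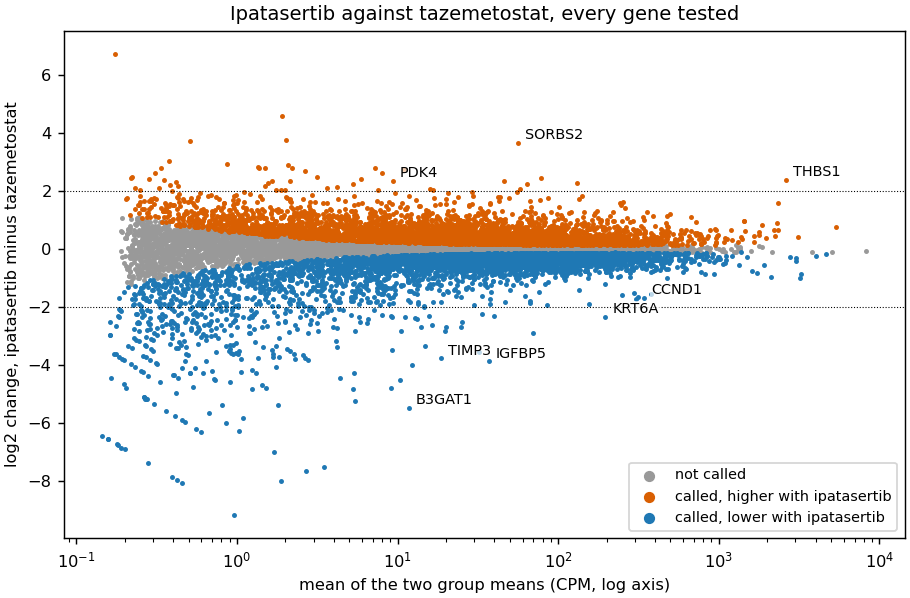
Each point is 1 of the 14628 genes tested, with its mean level in CPM on a log axis and its log2 change, ipatasertib minus tazemetostat, upward. Orange genes were called higher and blue genes called lower with ipatasertib, grey genes were not called, dotted lines mark a 4-fold difference (2 and -2 on the log2 scale), and the blue points reach further down at levels near 1 CPM than the orange points reach up.

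The genes that stood highest with ipatasertib relative to tazemetostat included 4 members of the matrix list and 4 of the FOXO-induced list given below. They were the 15 with the largest log2 change among called genes with a mean of at least 5 CPM and no overlap between the groups. SORBS2, an adaptor of actin fibres and cell junctions, had 107, 101 and 105 CPM with ipatasertib, against 8.15, 7.77 and 9.43 CPM with tazemetostat. Its lowest ipatasertib library was far above its highest tazemetostat library, a log2 change of 3.66 (SE 0.08), and DMSO cells had 17.0, 19.3 and 18.7 CPM, between the inhibitors. THBS1, the matrix protein thrombospondin that activates latent TGF-beta, had 4219, 4247 and 4589 CPM with ipatasertib, against 821, 913 and 833 CPM with tazemetostat, a log2 change of 2.39 (SE 0.06). DMSO cells had 4383, 4228 and 4148 CPM of THBS1, overlapping the ipatasertib libraries, and combination cells 1721, 1619.6 and 1737 CPM. The gene was thus low in both groups with tazemetostat and high in both without it. COL3A1, a fibrillar collagen, had 12.6, 13.9 and 14.7 CPM with ipatasertib, against 1.96, 2.58 and 2.37 CPM with tazemetostat, a log2 change of 2.60 (SE 0.12). Its level with DMSO, 28.8, 33.8 and 32.3 CPM, was above both inhibitors, and with the combination, at 0.931, 0.781 and 1.17 CPM, below both.

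Other matrix genes of the same kind were the small leucine-rich proteoglycans LUM, DCN and EPYC, with log2 changes of 2.78 (SE 0.11), 2.45 (SE 0.06) and 2.27 (SE 0.07). DCN, which binds collagen fibrils, had 127, 133 and 133 CPM with ipatasertib, against 23.9, 26.0 and 23.9 CPM with tazemetostat, with no overlap. VASN, a membrane protein that binds TGF-beta, differed by 2.04 (SE 0.13). CBLB, a ubiquitin ligase that restrains receptor signalling, had 105 ± 2.65 CPM with ipatasertib and 22.8 ± 1.94 CPM with tazemetostat (SD, n = 3 each), a log2 change of 2.25 (SE 0.07). SLITRK6, a neuronal membrane protein with leucine-rich repeats, had 75.9 ± 3.64 CPM with ipatasertib and 15.6 ± 1.65 CPM with tazemetostat, and combination cells had 117 ± 7.41 CPM against 15.4 ± 0.502 CPM with DMSO. Levels of SLITRK6 were therefore close in tazemetostat and DMSO cells and raised in both groups that held ipatasertib. STON1, an endocytic adaptor, and LGALS12, a galectin, were likewise high in both groups with ipatasertib, with log2 changes of 2.07 (SE 0.10) and 2.23 (SE 0.12).

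KLHL24, the substrate adaptor of a cullin ubiquitin ligase, is also in the FOXO-induced list. It had 92.0, 93.3 and 92.0 CPM with ipatasertib, against 19.4, 24.0 and 25.6 CPM with tazemetostat, a log2 change of 2.04 (SE 0.08). Combination cells had 132, 146 and 137 CPM and DMSO cells 13.1, 13.8 and 15.7 CPM, so the order was combination, ipatasertib, tazemetostat and DMSO, with no overlap between neighbours. Adjusted p of these 15 genes lay between 2.35e-25 for SORBS2 and 2.87e-14 for VASN in edgeR's quasi-likelihood F-test after Benjamini-Hochberg correction. The mean of DMSO libraries lay between the inhibitors for 9 of the 15, below both for 5 and above both for COL3A1. The mean of combination libraries lay above both for 7 of the 15, between them for 7 and below both for 1.

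**Figure D2:**
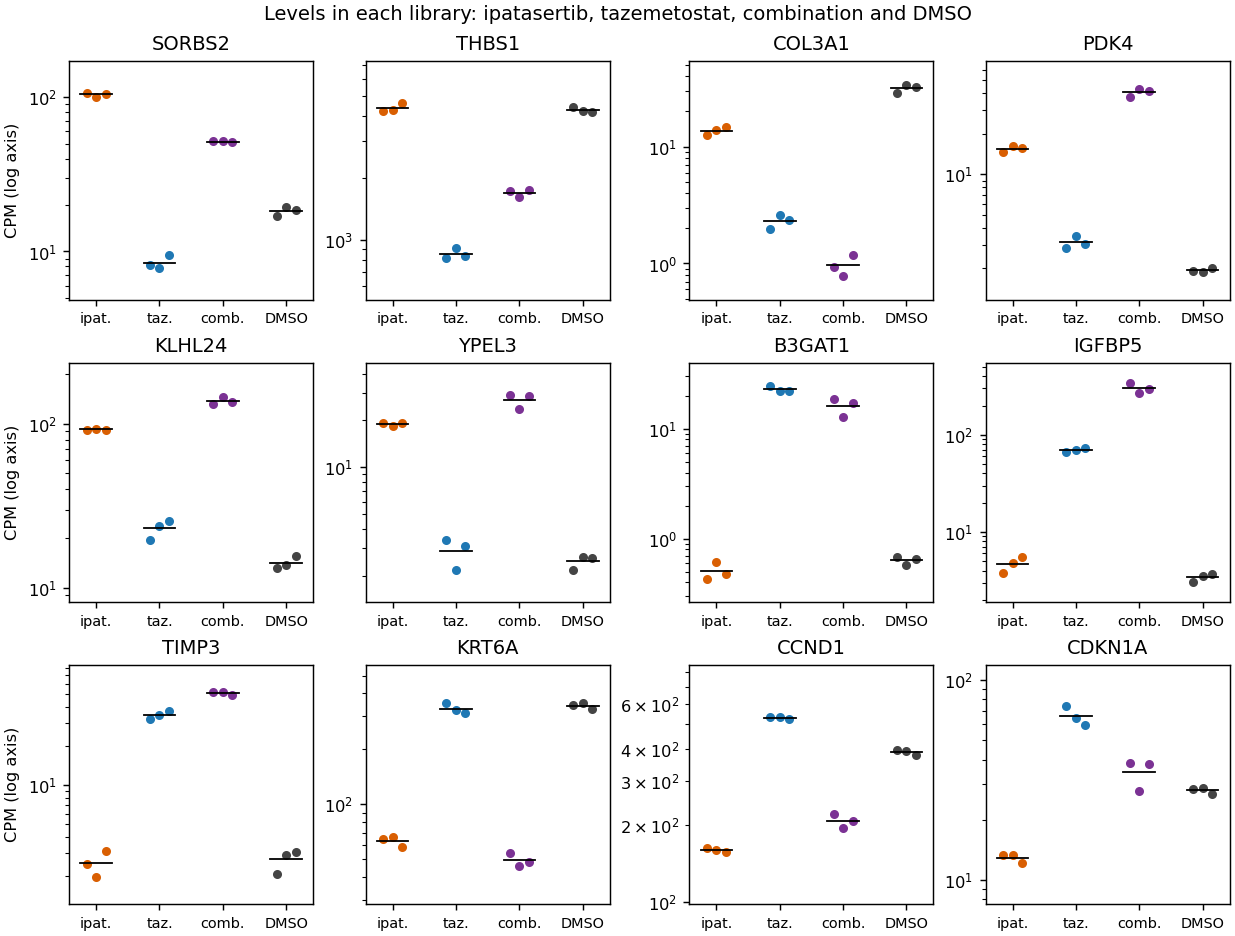
Level in CPM on a log axis (each panel with its own scale) of 12 genes in each library of the groups ipatasertib (ipat.), tazemetostat (taz.), combination (comb.) and DMSO, with a line at each group's mean of 3 libraries. SORBS2, THBS1, COL3A1, PDK4, KLHL24 and YPEL3 are higher with ipatasertib than with tazemetostat, the other 6 are lower, and in none of the 12 do the libraries of these 2 groups overlap.

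FOXO-induced genes were higher with ipatasertib than with tazemetostat. Of the 35 genes listed, 34 were in the files and 32 were tested, and of these 24 were higher with ipatasertib, 4 were lower and 4 were not called, or 75.0% higher against 29.6% of all genes. The median log2 change was 0.80, against 0.00275 over all genes tested. Of the 4 lower members, 1 passed the filter only through tazemetostat and had to differ. The following promoters, from RefSeq on GRCh38.p14, are shown because they hold the FOXO motif GTAAACA or its reverse complement TGTTTAC, in capitals, and run from 250 bases before to 50 after the annotated start. They belong to YPEL3 at chr16:30096164-30096463 (minus strand), TXNIP at chr1:145996530-145996829 (minus strand), BTG1 at chr12:92145797-92146096 (minus strand) and BCL2L11 at chr2:111120664-111120963 (plus strand), each printed 5′ to 3′ on its own strand.
YPEL3: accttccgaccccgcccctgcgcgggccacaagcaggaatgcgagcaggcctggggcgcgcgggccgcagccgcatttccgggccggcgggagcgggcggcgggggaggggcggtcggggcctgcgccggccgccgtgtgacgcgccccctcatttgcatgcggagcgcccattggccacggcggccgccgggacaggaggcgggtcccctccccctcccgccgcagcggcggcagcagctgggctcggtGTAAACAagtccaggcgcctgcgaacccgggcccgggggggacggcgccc
TXNIP: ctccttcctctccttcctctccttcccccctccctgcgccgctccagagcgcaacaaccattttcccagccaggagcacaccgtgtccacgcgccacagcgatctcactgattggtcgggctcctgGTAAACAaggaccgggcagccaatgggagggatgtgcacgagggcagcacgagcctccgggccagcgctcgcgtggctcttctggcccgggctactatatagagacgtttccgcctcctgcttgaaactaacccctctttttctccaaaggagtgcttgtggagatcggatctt
BTG1: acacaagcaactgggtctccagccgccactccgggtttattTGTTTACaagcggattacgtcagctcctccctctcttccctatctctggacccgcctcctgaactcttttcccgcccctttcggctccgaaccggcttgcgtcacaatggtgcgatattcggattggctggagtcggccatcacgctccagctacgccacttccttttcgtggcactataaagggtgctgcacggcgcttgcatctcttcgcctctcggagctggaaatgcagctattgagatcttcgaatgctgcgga
BCL2L11: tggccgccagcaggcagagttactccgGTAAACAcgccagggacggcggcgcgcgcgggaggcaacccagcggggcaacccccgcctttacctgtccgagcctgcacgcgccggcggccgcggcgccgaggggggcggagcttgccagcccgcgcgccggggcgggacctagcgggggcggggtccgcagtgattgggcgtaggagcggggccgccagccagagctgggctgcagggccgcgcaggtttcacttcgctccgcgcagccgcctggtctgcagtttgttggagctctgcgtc
Of the 32 tested members, 28 could be matched to a promoter, and 6 of the 28 held the motif on either strand, 21.4%, against 931 of 27305 promoters in the table, 3.41%. The other two holders were C10orf10 (DEPP1 in RefSeq) and FOXO4. These are matches of letters in a window and say nothing of binding.

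YPEL3, a small zinc-binding protein linked to growth arrest, had 19.2, 18.4 and 19.1 CPM with ipatasertib, against 3.38, 2.16 and 3.11 CPM with tazemetostat, a log2 change of 2.75 (SE 0.11). TXNIP, which binds thioredoxin and limits glucose uptake, had 303, 314 and 313 CPM with ipatasertib, against 127, 136 and 132 CPM with tazemetostat, a log2 change of 1.27 (SE 0.06). BTG1, an antiproliferative cofactor, had 385, 377 and 376 CPM with ipatasertib, against 121, 129 and 130.3 CPM with tazemetostat, a log2 change of 1.62 (SE 0.06). For all 3 the groups did not overlap, and TXNIP and BTG1 are named for their promoters after their values were seen. BCL2L11, the pro-apoptotic protein BIM, had 27.1 ± 1.52 CPM with ipatasertib and 18.5 ± 1.38 CPM with tazemetostat, a log2 change of 0.59 (SE 0.08). FOXO4, itself a FOXO factor, differed by 1.16 (SE 0.09) and C10orf10, an autophagy regulator induced by FOXO, by 1.17 (SE 0.16). The 6 genes with the motif were all higher with ipatasertib, but so were 24 of the 32 tested members of the list. A part of the motif in these differences was not tested.

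PDK4, which turns off pyruvate dehydrogenase, had 14.6, 16.3 and 15.6 CPM with ipatasertib, against 2.84, 3.47 and 3.05 CPM with tazemetostat, a log2 change of 2.35 (SE 0.11). It was highest in the combination, at 37.9, 43.6 and 41.7 CPM, and lowest with DMSO, at 1.90, 1.86 and 2.03 CPM. PIK3IP1, a membrane inhibitor of PI3K, had 9.88 ± 0.412 CPM with ipatasertib and 1.91 ± 0.477 CPM with tazemetostat, a log2 change of 2.42 (SE 0.14), and the death ligand TNFSF10 had 2.56 ± 0.171 CPM with ipatasertib and 0.543 ± 0.155 CPM with tazemetostat, a log2 change of 2.28 (SE 0.23). Adjusted p of YPEL3, PIK3IP1, PDK4 and TNFSF10 was 1.31e-18, 3.05e-15, 8.64e-18 and 6.34e-10 in edgeR's quasi-likelihood F-test after Benjamini-Hochberg correction. The list also held genes that went the other way. CDKN1A, the p21 inhibitor of cyclin-dependent kinases, had 13.2, 13.3 and 12.1 CPM with ipatasertib, against 74.1, 64.8 and 59.8 CPM with tazemetostat, a log2 change of -2.32 (SE 0.08). DMSO cells had 28.5, 28.9 and 26.9 CPM of CDKN1A, between the inhibitors, so it was raised with tazemetostat and lowered with ipatasertib relative to that level. GADD45A, a growth arrest gene, differed by -1.05 (SE 0.09), and INSR, the insulin receptor, by -0.58 (SE 0.10). INSR was nonetheless above its DMSO level of 3.30 ± 0.343 CPM in both, with 7.21 ± 0.276 CPM with ipatasertib and 11.1 ± 0.392 CPM with tazemetostat.

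**Figure D3:**
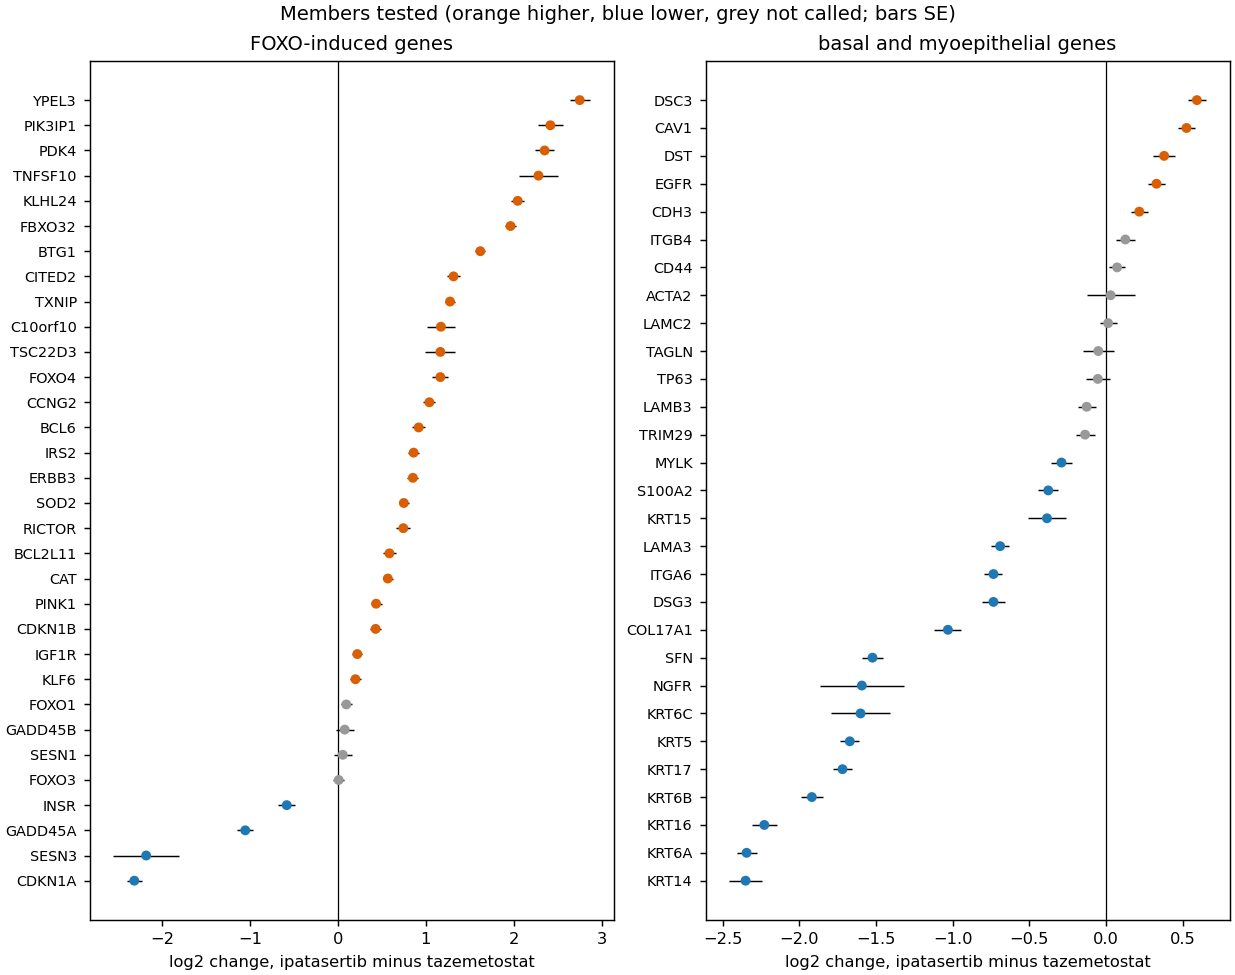
Log2 change, ipatasertib minus tazemetostat, of every tested member of the FOXO-induced list (left, 32 genes) and the basal and myoepithelial list (right, 29 genes), with bars of 1 SE. Orange members were called higher with ipatasertib, blue members called lower and grey members not called, and the FOXO-induced members lie mostly right of 0 while the keratins lie at the far left.

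Of the targeted kinases, AKT1 had 184 ± 5.80 CPM with ipatasertib and 197 ± 12.4 CPM with tazemetostat and was not called, with a log2 change of -0.05 (SE 0.06) and an adjusted p of 0.444 in the edgeR test. AKT2 was not called either, at 0.10 (SE 0.06), but it was without tazemetostat A, at 0.17 with an adjusted p of 0.000449 in the same test. In the list of PI3K and AKT pathway nodes, 8 of 30 were higher with ipatasertib, 5 were lower and 17 were not called, with a median of 0.02. Without tazemetostat A, 8 were lower. Examples were GAB2, a docking protein that recruits PI3K, at 0.95 (SE 0.09), TSC2, which restrains mTOR, at 0.38 (SE 0.07), SGK1, a kinase related to AKT, at -0.80 (SE 0.07), and the AKT phosphatases PHLPP1 and PHLPP2, at -0.44 (SE 0.07) and -0.40 (SE 0.07).

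Of the PRC2 genes, EZH2 was lower with ipatasertib than with tazemetostat, with 47.8, 49.4 and 46.3 CPM against 67.4, 71.7 and 70.2 CPM, a log2 change of -0.50 (SE 0.06). Its related enzyme EZH1 was higher, with 22.3, 21.6 and 22.3 CPM against 14.7, 15.8 and 14.5 CPM, a log2 change of 0.59 (SE 0.08). In neither gene did the groups overlap, and DMSO cells had 63.9 ± 4.40 CPM of EZH2 and 15.9 ± 0.484 CPM of EZH1. The core subunits EED and SUZ12, which EZH2 needs for its activity, were lower as well, by -0.52 (SE 0.06) and -0.25 (SE 0.06). Of the 11 subunits tested, 2 were higher with ipatasertib, 4 were lower and 5 were not called, and without ipatasertib C or without tazemetostat C the number higher was 1. S-phase genes moved with EZH2, with 37 of 40 lower with ipatasertib, and their part in its difference was not tested.

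Matrix and mesenchymal genes were higher with ipatasertib than with tazemetostat. Of the list of collagens and matrix proteins, 25 of 36 were higher with ipatasertib, or 69.4% against 29.6% of all genes. A further 6 were lower and 5 were not called, and the median log2 change of the list was 0.62. Besides LUM, COL3A1, DCN and THBS1 above, the list held lower members. FBN2, a fibrillin, had 2.66 ± 0.225 CPM with ipatasertib and 8.17 ± 1.03 CPM with tazemetostat, a log2 change of -1.56 (SE 0.13). FBLN1 and FBLN2, the fibulins of elastic fibres, differed by -1.30 (SE 0.12) and -0.91 (SE 0.13), and TNC, the matrix glycoprotein tenascin, by -0.66 (SE 0.05). The summed level of the list was 14596 CPM with ipatasertib and 7876 CPM with tazemetostat.

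Among epithelial-mesenchymal transition genes, 16 of 28 were higher with ipatasertib, or 57.1% against 29.6% of all genes. Another 7 were lower and 5 were not called, and the median of the list was 0.47. GREM1, a secreted antagonist of bone morphogenetic proteins, had 3369, 3531 and 3587 CPM with ipatasertib, against 1122, 1277 and 1198 CPM with tazemetostat, a log2 change of 1.58 (SE 0.06). DMSO cells had 2528 ± 187 CPM and combination cells 1308 ± 23.8 CPM, so the groups with tazemetostat had the lower levels of GREM1. The gelatinase MMP2, which cuts basement membrane collagen, had 359 ± 16.7 CPM with ipatasertib and 130.4 ± 5.01 CPM with tazemetostat, the related MMP9 differed by 1.39 (SE 0.10), and the ligand WNT5A by 1.42 (SE 0.06). Lower members were the urokinase PLAU at -0.71 (SE 0.07), the tropomyosin TPM1 at -0.58 (SE 0.07), the transcription factor SNAI2 at -0.57 (SE 0.10) and the matricellular CYR61 at -0.48 (SE 0.06).

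Some of these genes are also markers of fibroblasts, and 21 markers of fibroblast, endothelial, immune, adipocyte and neural cells were read beside them. Of the 21, 13 were under 1 CPM in all 6 libraries. The summed level of the 21 was 322 to 331 CPM with ipatasertib and 227 to 256 CPM with tazemetostat. For the 8 fibroblast markers it was 210.4 to 219.6 CPM and 66.9 to 76.0 CPM. DCN, LUM, COL3A1 and FAP made up most of it, and FAP was higher with ipatasertib by 0.47 (SE 0.07). The other 4 markers, PDGFRA, PDGFRB, THY1 and COL1A2, averaged 0, 0.399, 0.0421 and 0.277 CPM with ipatasertib. With tazemetostat these averaged 0.0222, 0.130, 0.0522 and 0.105 CPM. Of these 4, PDGFRB had enough counts to be tested, through the ipatasertib libraries alone, and its log2 change of 1.65 (SE 0.48) is a description. In bulk RNA, fewer cells of a kind and less RNA per cell cannot be told apart, here and in every comparison below.

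At the other end, genes far lower with ipatasertib than with tazemetostat included the insulin-like growth factor carriers IGFBP5 and IGFBP2, the protease inhibitor TIMP3 and the calcium-binding proteins S100A8 and S100A9. They were the 15 with the most negative log2 change under the same limits on level and overlap. B3GAT1, the glucuronyltransferase that makes the HNK-1 glycan of neural and natural killer cells, had 0.426, 0.608 and 0.478 CPM with ipatasertib, against 24.7, 22.0 and 22.2 CPM with tazemetostat, a log2 change of -5.49 (SE 0.15). DMSO cells had 0.680, 0.571 and 0.654 CPM and combination cells 18.8, 12.8 and 17.1 CPM, so B3GAT1 was near its DMSO level with ipatasertib and high wherever tazemetostat was present. MYOCD, a coactivator of smooth and cardiac muscle genes, had 0.351, 0.228 and 0.478 CPM with ipatasertib, against 9.73, 11.2 and 9.62 CPM with tazemetostat, a log2 change of -4.82 (SE 0.19). The atypical kinesin KIF26A differed by -4.80 (SE 0.15) and the small heat-shock protein HSPB8 by -4.29 (SE 0.17). HSPB8 had 0.492 ± 0.174 CPM with ipatasertib, 10.2 ± 0.763 CPM with tazemetostat, 10.3 ± 1.13 CPM with the combination and 0.720 ± 0.107 CPM with DMSO, the same division by tazemetostat.

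CYP4F22 and CASP14 are known from cornifying skin. CYP4F22, which acts on the very long fatty acids of skin ceramides, had 0.201, 0.570 and 0.0435 CPM with ipatasertib, against 9.69, 10.6 and 11.6 CPM with tazemetostat, a log2 change of -5.25 (SE 0.23). CASP14, the caspase of cornifying keratinocytes, had 1.40, 1.56 and 1.43 CPM with ipatasertib, against 16.4, 18.1 and 16.5 CPM with tazemetostat, a log2 change of -3.50 (SE 0.12). S100A8 and S100A9, the subunits of calprotectin, had log2 changes of -4.52 (SE 0.13) and -3.55 (SE 0.09). S100A9 had 4.99, 5.28 and 4.35 CPM with ipatasertib, against 64.8, 56.5 and 56.2 CPM with tazemetostat. DMSO cells had 11.4, 11.7 and 12.8 CPM of S100A9 and combination cells 23.6, 23.0 and 26.8 CPM. Thus S100A9 lay below DMSO with ipatasertib and above it with tazemetostat, and the combination lay between the inhibitors. FGFBP1, a secreted carrier of fibroblast growth factors, had 16.4 ± 0.762 CPM with ipatasertib, 124 ± 2.34 CPM with tazemetostat, 35.8 CPM on average with the combination and 51.8 ± 6.09 CPM with DMSO, and a log2 change of -2.89 (SE 0.07). For this gene too DMSO lay between the inhibitors, but the combination was below DMSO.

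The other 6 of the 15 are secreted or surface proteins. IGFBP5, which binds insulin-like growth factors, had 3.81, 4.79 and 5.52 CPM with ipatasertib, against 66.2, 69.1 and 72.7 CPM with tazemetostat, a log2 change of -3.88 (SE 0.10). In the combination it reached 342, 271 and 298 CPM, above tazemetostat alone, and with DMSO it was at 3.05, 3.49 and 3.69 CPM. TIMP3, a matrix-bound inhibitor of metalloproteinases, had 2.46, 1.94 and 3.13 CPM with ipatasertib, against 32.3, 34.8 and 37.4 CPM with tazemetostat, a log2 change of -3.77 (SE 0.11). Its combination libraries, at 52.5, 52.3 and 49.9 CPM, were also above tazemetostat alone. IGFBP2 differed by -2.84 (SE 0.10), the elastic fibre protein ELN by -3.99 (SE 0.13), the mesenchymal cadherin CDH11 by -3.35 (SE 0.10) and the thrombin receptor F2R by -2.84 (SE 0.11). Adjusted p of the 15 genes lay between 3.81e-24 for FGFBP1 and 4.61e-18 for CYP4F22 in edgeR's quasi-likelihood F-test after Benjamini-Hochberg correction. CYP4F22 and MYOCD passed the filter only through the tazemetostat libraries and had to differ, so their changes and p-values are a description. The DMSO mean lay between the inhibitors for 13 of the 15 and below both for 2, and the combination mean lay above both for 4 and between them for 11.

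The tissue inhibitors of metalloproteinases and the IGF-binding proteins did not move as a family. Of 10 tested, 5 were higher with ipatasertib and 4 were lower, with 1 not called and a median of 0.19. The higher count was 3 without ipatasertib B. IGFBP6, IGFBP4 and TIMP2 were higher, by 0.81 (SE 0.07), 0.80 (SE 0.06) and 0.36 (SE 0.06). IGFBP5, TIMP3, IGFBP2 and TIMP4 were lower, TIMP4 by -0.63 (SE 0.11). The lower members differed by up to -3.88 and the higher ones by at most 0.81.

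Developmental transcription factors, many of which are held silent by PRC2 in differentiated cells, were divided by level. Of 96 listed factors outside the HOX clusters, 64 were tested, 15 were higher with ipatasertib, 34 were lower (53.1% against 30.4% of all genes) and 15 were not called, with a median log2 change of -0.32. Of the 64, 11 passed the filter only through tazemetostat and had to differ, so neither this count nor the median is support. LHX2, a homeobox factor of forebrain and hair follicle, had 1.08, 1.06 and 0.956 CPM with ipatasertib, against 6.61, 7.26 and 6.95 CPM with tazemetostat, a log2 change of -2.69 (SE 0.15). It had 5.84, 7.77 and 6.02 CPM in the combination and 0.961, 0.812 and 0.883 CPM with DMSO, so its level went with the presence of tazemetostat. MSX1, ZIC5 and ZIC2 are among the 11 that had to differ, and their values are a description. MSX1, a homeobox factor of limb and tooth, had 0.251, 0.304 and 0.174 CPM with ipatasertib, against 3.28, 2.93 and 3.19 CPM with tazemetostat, a log2 change of -3.61 (SE 0.25). ZIC5, a zinc-finger factor of neural tube, had 0.0862 ± 0.0904 CPM with ipatasertib and 3.49 ± 0.182 CPM with tazemetostat, a log2 change of -5.38 (SE 0.33). Its relative ZIC2 had 2 counts over the 3 ipatasertib libraries and 463 over the 3 tazemetostat libraries.

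Factors with appreciable expression in ipatasertib cells went the other way in part. SOX9, a factor of mammary progenitors, had 242 ± 1.07 CPM with ipatasertib and 155 ± 6.08 CPM with tazemetostat, a log2 change of 0.69 (SE 0.06), and reached 369 ± 9.97 CPM in the combination. PAX8 and MEIS1 were also higher with ipatasertib, by 0.84 (SE 0.10) and 0.73 (SE 0.07). None of the higher members exceeded 0.84 on the log2 scale. By size, 21 of 64 members were over 2-fold lower with ipatasertib, where 5.84% of all genes were, but 11 of the 21 had to differ. No member was over 2-fold higher, where 3.49% of all genes were.

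Of 39 HOX genes, which specify position along the body axis, 23 were tested. With ipatasertib 8 were higher (34.8%, against 29.6% of all genes) and 10 lower (43.5%, against 30.4%). The median was -0.04 and 5 were not called. Of the 23, 5 passed the filter only through tazemetostat and had to differ, so neither the lower count nor the median is support. HOXA5 had 11.3, 9.05 and 10.2 CPM with ipatasertib, against 4.96, 5.09 and 5.44 CPM with tazemetostat, a log2 change of 1.03 (SE 0.11). HOXA3, HOXC12 and HOXC9 were higher by 0.66 (SE 0.08), 0.55 (SE 0.10) and 0.50 (SE 0.09). HOXC8 and HOXC4 were lower by -0.66 (SE 0.10) and -0.45 (SE 0.09). Higher and lower members therefore stood side by side within the HOXC cluster, where overlapping transcripts cannot be told apart without the strand setting. The most negative value of the list was -4.61, at a gene near 0 with ipatasertib.

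**Figure D4:**
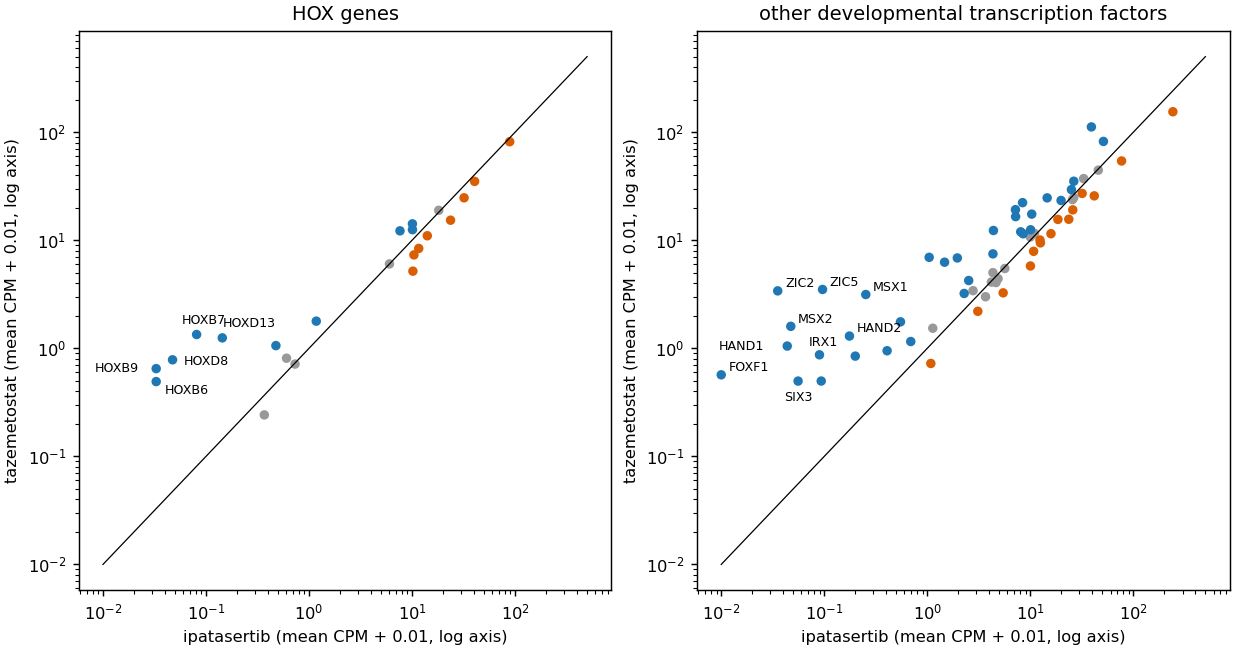
Mean level in CPM plus 0.01 on log axes, with ipatasertib across and with tazemetostat upward, of the 23 tested HOX genes (left) and the 64 other tested developmental factors (right). Orange genes were called higher with ipatasertib, blue called lower and grey not called, the line marks equal levels, and the labelled genes, all well under 1 CPM with ipatasertib, lie far above it.

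Some genes were all but undetected in one group. Taking genes with at most 3 counts over the 3 libraries of 1 group and at least 30 in each library of the other, none was found at ipatasertib's side and 20 at tazemetostat's. The deeper tazemetostat libraries make such a difference easier to see on that side. IGF2BP1, a fetal RNA-binding protein, had 2 with ipatasertib and 724 with tazemetostat, with 251 in the combination and 4 with DMSO. KLK5, a protease of skin shedding, had 3 with ipatasertib and 947 with tazemetostat, and KLK7, its partner in the same process, 2 with ipatasertib and 277 with tazemetostat. SHH, the hedgehog ligand, had 0 with ipatasertib and 107 with tazemetostat, with 67 in the combination and 0 with DMSO. The limb and heart factors HAND1 and MSX2 had 3 with ipatasertib and 140 with tazemetostat and 3 with ipatasertib and 216 with tazemetostat, and the neuronal nitric oxide synthase NOS1 3 with ipatasertib and 293 with tazemetostat. The others included CEACAM6, CYTL1, HOXD8, LAIR2, NLGN4X, NTRK3, OR51B5, PLA2G7, SPRR1A, TMEM98, TSHZ3 and ZIC2. All 20 passed the filter because of tazemetostat, so their number is a description, and they were chosen after their values were seen.

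Basal keratins were lower with ipatasertib than with tazemetostat. KRT6A, a keratin of activated basal and suprabasal cells, had 64.5, 66.3 and 58.5 CPM with ipatasertib, against 355, 324 and 312 CPM with tazemetostat, a log2 change of -2.35 (SE 0.07). DMSO cells had 345, 356 and 328 CPM, overlapping tazemetostat, and combination cells had 54.1, 45.8 and 48.7 CPM, so KRT6A was low in both groups with ipatasertib. KRT14, the partner keratin of the basal layer, had 3.29, 3.88 and 3.56 CPM with ipatasertib, against 20.2, 18.6 and 17.1 CPM with tazemetostat, a log2 change of -2.35 (SE 0.11). KRT16 and KRT6B differed by -2.23 (SE 0.08) and -1.92 (SE 0.07). These keratins have near-identical copies, so the split between them is uncertain. Of the basal and myoepithelial list, 5 of 29 were higher with ipatasertib, 16 were lower and 8 were not called, with a median of -0.38. The share lower was 55.2% against 30.4% of all genes, and 10 members were over 2-fold lower. Not every basal gene was low, since the desmosomal cadherin DSC3, the caveolar protein CAV1, the linker DST and EGFR were higher by 0.59 (SE 0.06), 0.53 (SE 0.05), 0.38 (SE 0.07) and 0.33 (SE 0.06).

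Both directions were found among luminal genes, with the higher share near that of all genes. Of 30 listed, 20 were tested, with 7 higher with ipatasertib (35.0%, against 29.6% of all genes) and 9 lower (45.0%, against 30.4%). The other 4 were not called, and the median was -0.08. GATA3, the transcription factor of luminal cells, had 53.0 ± 1.81 CPM with ipatasertib and 40.6 ± 0.358 CPM with tazemetostat, a log2 change of 0.42 (SE 0.06), and 86.4 ± 3.28 CPM in the combination. The epithelial factor ELF3 and the receptor ERBB2 were higher by 0.52 (SE 0.07) and 0.52 (SE 0.06). The luminal keratin KRT19, the mucin MUC1, the tight-junction protein CLDN3 and the oestrogen receptor ESR1 were lower by -0.75 (SE 0.06), -0.68 (SE 0.08), -1.11 (SE 0.23) and -0.68 (SE 0.12). ESR1 was at 3.41 ± 0.209 CPM with ipatasertib and 5.58 ± 0.300 CPM with tazemetostat.

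Genes of DNA replication and mitosis were lower with ipatasertib. All 32 mitosis genes tested were lower, with log2 changes between -0.79 and -0.25 and a median of -0.50. Of 40 DNA replication and S-phase genes, 37 were lower, none was higher and 3 were not called, with a median of -0.50. MKI67, the proliferation antigen, had 241, 259.9 and 314 CPM with ipatasertib, against 444, 512 and 491 CPM with tazemetostat, a log2 change of -0.79 (SE 0.07). RRM2, a subunit of ribonucleotide reductase, had 645 ± 20.8 CPM with ipatasertib and 1214 ± 52.4 CPM with tazemetostat, a log2 change of -0.87 (SE 0.05). The replication initiators MCM10, CDC6 and ORC6 differed by -0.87 (SE 0.06), -0.85 (SE 0.06) and -0.76 (SE 0.07). The mitotic genes KIF23, CDC20 and AURKA differed by -0.76 (SE 0.06), -0.75 (SE 0.06) and -0.73 (SE 0.06). DMSO cells had 467 ± 25.5 CPM of MKI67 and combination cells 255 ± 28.1 CPM, so the low levels were in the groups with ipatasertib. None of either list was 2-fold apart.

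CCND1, the D cyclin that AKT signalling stabilises and that drives G1, had 162, 159 and 157 CPM with ipatasertib, against 534, 531 and 523 CPM with tazemetostat, a log2 change of -1.69 (SE 0.06). DMSO cells had 396, 393 and 377 CPM and combination cells 222, 196 and 209 CPM, so the order from low to high was ipatasertib, combination, DMSO and tazemetostat, with no overlap. Among G1 cyclins and CDK inhibitors, 2 of 12 were higher with ipatasertib, 8 were lower and 2 were not called, with a median of -0.24. CCND3 and the pocket protein RBL1 were lower by -0.53 (SE 0.07) and -0.39 (SE 0.07). CDKN1B, the p27 inhibitor that FOXO factors induce, and the pocket protein RBL2 of resting cells were higher by 0.43 (SE 0.06) and 0.27 (SE 0.06). CDKN1A, described above, was lower, so the p21 and p27 inhibitors differed in opposite directions.

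Ribosome genes separated by role. Of 31 ribosome biogenesis genes, which make and process ribosomal RNA, 26 were lower with ipatasertib, 1 was higher and 4 were not called, with a median of -0.43. The higher one was MYC, which drives this programme, with 127, 134 and 128 CPM with ipatasertib, against 97.6, 93.9 and 93.2 CPM with tazemetostat, a log2 change of 0.49 (SE 0.06). Without tazemetostat A or without tazemetostat C, 2 were higher. The nucleolar factors LYAR, RRS1, RRP12 and UTP20 were lower by -0.82 (SE 0.06), -0.65 (SE 0.07), -0.61 (SE 0.07) and -0.60 (SE 0.07). The genes for cytosolic ribosomal proteins went the other way. Of 58, 48 were higher with ipatasertib, none was lower and 10 were not called, with a median of 0.31 and a summed level of 32867 CPM with ipatasertib and 26973 CPM with tazemetostat. RPL3 and RPL13, proteins of the large subunit, differed by 0.65 (SE 0.05) and 0.56 (SE 0.06), and RPS27 of the small subunit by 0.55 (SE 0.07). Ribosomal protein genes have many processed copies, so single values are uncertain. EEF2, the elongation factor whose mRNA belongs to the same growth-controlled class, was higher by 0.66 (SE 0.06).

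Autophagy and lysosome genes were higher with ipatasertib. Of 38 tested, 30 were higher (78.9% against 29.6% of all genes), 4 were lower and 4 were not called, with a median of 0.45. The lower count was 2 without ipatasertib B. ULK1, the kinase that starts autophagy, had 30.0, 31.1 and 32.6 CPM with ipatasertib, against 14.3, 14.0 and 14.1 CPM with tazemetostat, a log2 change of 1.18 (SE 0.07). GABARAPL1 and MAP1LC3A, proteins of the autophagosome membrane, differed by 1.04 (SE 0.07) and 1.16 (SE 0.10), and CTSB, a lysosomal protease, by 0.98 (SE 0.05). The lower members included GLA and NPC1, a lysosomal glycosidase and a cholesterol transporter, at -0.33 (SE 0.07) and -0.26 (SE 0.06). FTH1, the ferritin heavy chain that autophagy also recycles, had 6759, 6556 and 6469.6 CPM with ipatasertib, against 4316, 3953 and 3949 CPM with tazemetostat, a log2 change of 0.74 (SE 0.05). It was named for one of the largest differences in CPM, a ranking that also grows with transcript length, and its copies make its count uncertain. It was 11064 ± 119 CPM in the combination and 2448 ± 83.4 CPM with DMSO, so each inhibitor stood above DMSO.

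Lipid synthesis genes were lower with ipatasertib. Of 23 sterol synthesis genes tested, 19 were lower, 1 was higher and 3 were not called, with a median of -0.41. Without tazemetostat A, 2 were higher. HMGCS1, an early enzyme of cholesterol synthesis, had 42.1, 40.7 and 41.2 CPM with ipatasertib, against 77.0, 85.8 and 82.3 CPM with tazemetostat, a log2 change of -0.94 (SE 0.06). DMSO cells had 41.2 ± 0.643 CPM of HMGCS1, so ipatasertib cells were near DMSO and tazemetostat cells above it. INSIG1, which holds the sterol sensor in the endoplasmic reticulum, the cholesterol carrier STARD4 and the thiolase ACAT2 were lower by -1.08 (SE 0.06), -1.25 (SE 0.10) and -0.78 (SE 0.07). The reductase TM7SF2 was higher by 0.37 (SE 0.10). Of 16 fatty acid synthesis genes, 12 were lower, 1 was higher and 3 were not called, with a median of -0.20. SCD, the desaturase that makes oleate, had 1994, 2118 and 2152 CPM with ipatasertib, against 4239, 4432 and 4354 CPM with tazemetostat, a log2 change of -1.02 (SE 0.05). It was at 5935 ± 25.8 CPM in the combination and 1874 ± 199 CPM with DMSO, so the combination was above both inhibitors. The desaturase FADS2, the acyl-CoA ligase ACSL1 and the synthase FASN were lower by -0.80 (SE 0.06), -0.94 (SE 0.06) and -0.51 (SE 0.05), and the acetate ligase ACSS2 was higher by 0.42 (SE 0.06).

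Of the glycolysis genes, more were lower than higher with ipatasertib. Of 19 tested, 3 were higher with ipatasertib, 11 were lower and 5 were not called, with a median of -0.25. The hexokinases HK2 and HK1 were lower by -0.51 (SE 0.06) and -0.41 (SE 0.05), the kinase PGK1 by -0.41 (SE 0.05) and the dehydrogenase LDHA by -0.34 (SE 0.05). The glucose transporter SLC2A1 and the phosphofructokinase PFKL were higher by 0.35 (SE 0.06) and 0.28 (SE 0.06). Nuclear genes of the respiratory chain held mostly genes that were not called. Of 37, 4 were higher, 10 were lower and 23 were not called, with a median of -0.05. The share not called was above that of all genes, where 60.0% were called. NDUFV1 of the first complex and SDHA of the second were higher by 0.46 (SE 0.06) and 0.42 (SE 0.06). NDUFA9 of the first complex, COX7B of cytochrome oxidase and ATP5G1 and ATP5H of ATP synthase were lower by -0.44 (SE 0.06), -0.37 (SE 0.07), -0.41 (SE 0.07) and -0.30 (SE 0.06).

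Interferon-stimulated genes were lower with ipatasertib than with tazemetostat. Of 38 tested, 4 were higher, 27 were lower (71.1%, against 30.4% of all genes) and 7 were not called, with a median of -0.41. Of the 38, 3 passed the filter only through tazemetostat and had to differ. The higher count was 2 without tazemetostat B. CMPK2, a mitochondrial nucleotide kinase, had 0.351, 0.342 and 0.565 CPM with ipatasertib, against 2.24, 2.98 and 2.73 CPM with tazemetostat, a log2 change of -2.66 (SE 0.25). MX1, an antiviral GTPase, had 1.66 ± 0.339 CPM with ipatasertib and 5.29 ± 1.94 CPM with tazemetostat, a log2 change of -1.63 (SE 0.21). Its tazemetostat libraries were spread, though the groups did not overlap. OASL and OAS1, of the oligoadenylate synthetase family, differed by -1.56 (SE 0.11) and -1.48 (SE 0.19). The 4 higher members were TMEM173, the adaptor STING of cytosolic DNA sensing, at 0.98 (SE 0.08), the transcription factor STAT2 at 0.76 (SE 0.07), the exonuclease ISG20 at 0.40 (SE 0.17) and the membrane protein BST2, which tethers virus particles, at 0.16 (SE 0.06). GBP2, an interferon-induced GTPase, was higher as well, with 26.6, 25.2 and 27.5 CPM with ipatasertib, against 6.15, 6.79 and 7.19 CPM with tazemetostat, a log2 change of 2.02 (SE 0.09). It was at 77.2, 86.9 and 80.1 CPM in the combination and 3.54, 3.40 and 4.02 CPM with DMSO. Of the 4 guanylate-binding proteins tested, GBP2 was higher, GBP5 was lower by -0.77 (SE 0.17) and 2 were not called, and without tazemetostat B 2 were lower.

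Antigen presentation genes were found in both directions, with the higher share near that of all genes. Of 21 tested, 7 were higher with ipatasertib (33.3%, against 29.6% of all genes) and 9 were lower (42.9%, against 30.4%). The other 5 were not called, and the median was -0.10. Of the 9 lower, 4 passed the filter only through tazemetostat and had to differ, so neither the lower count nor the median is support. The peptide transporters TAP1 and TAP2 and the immunoproteasome subunit PSMB9 were lower by -0.36 (SE 0.07), -0.53 (SE 0.06) and -0.39 (SE 0.10), and the loading factor TAPBP was higher by 0.47 (SE 0.05). HLA-E was higher by 0.45 (SE 0.06) and HLA-B lower by -0.35 (SE 0.06), and since HLA genes share reads these values are uncertain. Among NF-kB and inflammatory cytokine genes, 9 of 35 were higher with ipatasertib (25.7%) and 14 were lower (40.0%). The other 12 were not called, and the median was -0.10. The passage through the filter depended on ipatasertib alone for 2 and on tazemetostat alone for 2, and these had to differ. CSF1, the macrophage growth factor, had 95.4, 103 and 104 CPM with ipatasertib, against 33.2, 31.5 and 33.9 CPM with tazemetostat, a log2 change of 1.66 (SE 0.06). The chemokine CXCL3, the adhesion molecule ICAM1 and TNFAIP2 were higher by 1.22 (SE 0.09), 0.65 (SE 0.06) and 0.65 (SE 0.06). The chemokine CCL20 and the cytokine IL1A were lower by -1.82 (SE 0.12) and -1.21 (SE 0.08), beside S100A8 and S100A9.

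Genes downstream of the ERK kinases were lower with ipatasertib than with tazemetostat. Of 30 ERK feedback and immediate early genes, 5 were higher, 19 were lower (63.3%, against 30.4% of all genes) and 6 were not called, with a median of -0.42. Of the 19 lower, 1 passed the filter only through tazemetostat and had to differ. EGR1, an immediate early transcription factor, had 14.3, 19.7 and 17.9 CPM with ipatasertib, against 64.7, 56.0 and 53.0 CPM with tazemetostat, a log2 change of -1.71 (SE 0.09). FOSL1, a subunit of the factor AP-1, had 72.1, 77.9 and 67.7 CPM with ipatasertib, against 219.5, 187 and 189 CPM with tazemetostat, a log2 change of -1.41 (SE 0.07). Both genes were separated without overlap, and so was CCND1 in the same list. The ephrin receptor EPHA4 was lower by -1.89 (SE 0.13). FOSB, the feedback inhibitor SPRY2, MAFF and IER3 were higher by 0.75 (SE 0.21), 0.45 (SE 0.06), 0.40 (SE 0.08) and 0.31 (SE 0.06).

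More ligands and receptors of the EGF family were lower than higher with ipatasertib. All 14 were tested, with 4 higher with ipatasertib (28.6%, against 29.6% of all genes) and 8 lower (57.1%, against 30.4%). The other 2 were not called, and the median was -0.73. Of the 14, 3 passed the filter only through tazemetostat and had to differ, so neither the lower count nor the median is support. Of the receptors, ERBB3, which FOXO factors induce and which couples to PI3K, had 82.9, 85.8 and 91.4 CPM with ipatasertib, against 48.0, 49.0 and 50.9 CPM with tazemetostat, a log2 change of 0.85 (SE 0.06). ERBB2 and EGFR were higher too, as given above. Of the ligands, NRG1, EPGN, HBEGF and TGFA were lower by -2.13 (SE 0.18), -1.67 (SE 0.13), -1.18 (SE 0.10) and -0.84 (SE 0.06). TGFA had 49.6, 49.6 and 48.9 CPM with ipatasertib, against 88.9, 90.9 and 92.9 CPM with tazemetostat, with no overlap. BTC was a ligand that was higher, by 0.39 (SE 0.11).

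Other response lists showed no common direction. Of 32 ATF4 and amino acid response genes, 11 were higher with ipatasertib, 10 were lower and 11 were not called, with a median of -0.01. Of the 10 lower, 1 passed the filter only through tazemetostat and had to differ. The cystine transporter SLC7A11 and the amino acid transporter SLC38A2 were higher by 1.23 (SE 0.08) and 0.65 (SE 0.07). The stress factor ATF3, the pseudokinase TRIB3 and the folate enzyme MTHFD2 were lower by -1.47 (SE 0.12), -0.59 (SE 0.08) and -0.39 (SE 0.06). Of 26 YAP and TEAD target genes, 9 were higher, 11 were lower and 6 were not called, with a median of -0.10, and the higher count was 5 without ipatasertib B. TGFB2, a TGF-beta ligand, had 1877 ± 50.9 CPM with ipatasertib and 1004 ± 110.0 CPM with tazemetostat, a log2 change of 0.94 (SE 0.06). F3, the tissue factor of coagulation, had 186, 194 and 186 CPM with ipatasertib, against 554, 587 and 575 CPM with tazemetostat, a log2 change of -1.56 (SE 0.06). DMSO cells had 1002 ± 31.1 CPM of F3, above both inhibitors, and combination cells 119 ± 6.61 CPM, below both. WWC1, an upstream regulator of YAP, was lower by -1.09 (SE 0.06).

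Of 17 BCL2 family genes, which set the threshold for apoptosis, 5 were higher with ipatasertib, 4 were lower and 8 were not called, with a median of -0.01. BMF, a BH3-only protein, had 15.8, 16.7 and 17.3 CPM with ipatasertib, against 6.64, 6.00 and 6.14 CPM with tazemetostat, a log2 change of 1.44 (SE 0.09). BBC3, the protein PUMA, had 7.25, 7.41 and 7.30 CPM with ipatasertib, against 3.12, 3.21 and 2.75 CPM with tazemetostat, a log2 change of 1.32 (SE 0.12). BNIP3L, a mitophagy receptor, was higher by 0.71 (SE 0.07). The lower ones were of both kinds, with the anti-apoptotic BCL2 and MCL1 at -0.84 (SE 0.13) and -0.23 (SE 0.06) and the pro-apoptotic PMAIP1 and BAK1 at -0.52 (SE 0.08) and -0.39 (SE 0.08). BMF was highest in the combination, at 26.9, 24.8 and 25.6 CPM, and at 5.81, 4.93 and 5.72 CPM with DMSO.

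**Figure D5:**
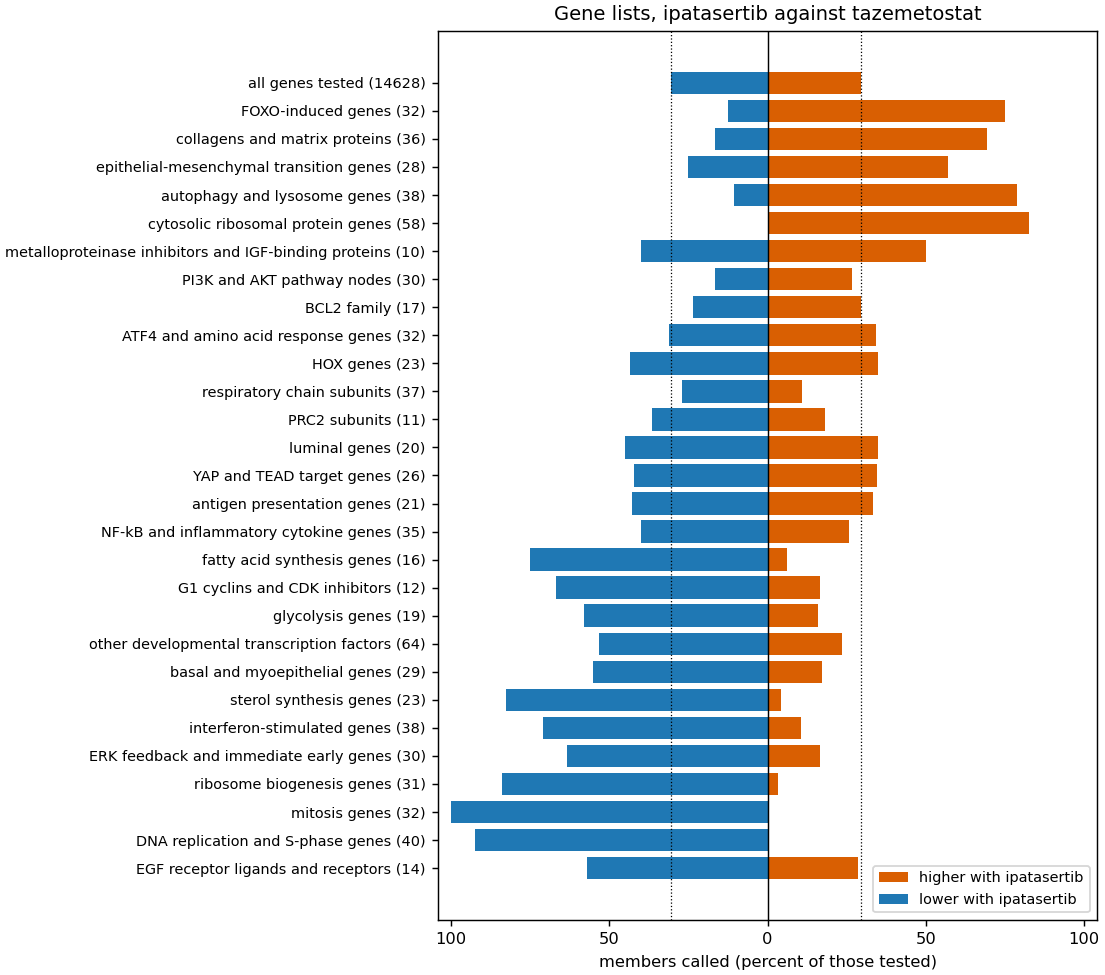
For each gene list with at least 10 tested members (number tested in brackets), the percent of tested members called lower (blue, to the left) and higher (orange, to the right) with ipatasertib. Dotted lines mark the shares over all genes tested, 30.4% lower and 29.6% higher, and the lists are ordered by their median log2 change, from FOXO-induced genes at 0.80 to EGF receptor ligands and receptors at -0.73. Members that passed the low-count filter through only 1 group are included and not marked.

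Most list differences were small per gene, and the counts shrank when each gene was tested against a 1.5-fold change in place of any change. That test called 5.07% of all genes higher with ipatasertib and 6.72% lower. In it 17 FOXO-induced, 16 matrix and 10 autophagy and lysosome genes were higher with ipatasertib, or 53.1%, 44.4% and 26.3% of those tested. Of cytosolic ribosomal protein genes 1 was higher, or 1.72%, a share under that of all genes. Lower were 11 basal and myoepithelial genes, or 37.9%, and 21 developmental factors outside the HOX clusters, or 32.8%, of which 11 had to differ. Also lower were 9 interferon-stimulated genes, or 23.7%, of which 2 had to differ. Lower too were 5 S-phase genes (12.5%), 4 mitosis genes (12.5%) and 4 sterol synthesis genes (17.4%). In the ribosome biogenesis list 1 gene was lower, or 3.23%, under the share of all genes. Most differences in the cell cycle and ribosome lists were thus not called at this size.

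Abundant transcripts with the largest differences in CPM, besides THBS1, GREM1 and FTH1, were FN1, the matrix protein fibronectin, higher by 0.89 (SE 0.06), and C3, the central complement protein, higher by 0.81 (SE 0.05). C3 had 2263, 2365 and 2405 CPM with ipatasertib, against 1346, 1372 and 1406 CPM with tazemetostat, with no overlap. Lower were SCD, the keratin KRT81 at -0.88 (SE 0.06), the chaperone HSP90AA1 at -0.98 (SE 0.05), the metalloreductase STEAP4 at -0.83 (SE 0.06) and the tubulins TUBB and TUBA1B at -0.42 (SE 0.05) and -0.76 (SE 0.06), of which KRT81 and the tubulins have near-identical copies. HSP90AA1 had 1409.6, 1436 and 1341 CPM with ipatasertib, against 2671, 2905 and 2909 CPM with tazemetostat, and DMSO cells had 2806 ± 117 CPM. Its tazemetostat level was thus near DMSO and its ipatasertib level below.

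Among genes with a mean of at least 100 CPM, those closest to no difference included MCTP2, EIF2AK4, FAM168B and ASXL1, with log2 changes of 0.00 to 2 decimals and an SE of 0.06 each. EIF2AK4, the kinase GCN2 that senses missing amino acids, had 196 ± 10.5 CPM with ipatasertib and 202 ± 3.65 CPM with tazemetostat, and ASXL1, a Polycomb-associated protein, had 116 ± 5.54 CPM with ipatasertib and 119 ± 5.05 CPM with tazemetostat. Levels scaled over 12 libraries sit 0.04 lower on the log2 scale for ipatasertib against tazemetostat than the changes fitted to the 6 libraries, which is why these means differ slightly. Adjusted p was 0.998 for ASXL1 in edgeR's quasi-likelihood F-test after Benjamini-Hochberg correction.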

How the data were processed

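Polyadenylated RNA was sequenced from 12 SUM149PT libraries, of which the 3 with ipatasertib and the 3 with tazemetostat were compared. The authors deposited raw counts per gene for each library, under gene symbols. The tools named per the submitters' processing notes are STAR, SAMtools, HTSeq and DESeq2, and the build is hg19. Versions, annotation and strand setting were not given in the sources used here. Overlapping and antisense genes can therefore not be separated, and coordinates in that build are left out. Of all reads, 29.8% to 38.6% per library fell on the 5 summary lines that name no gene, which were left out. A deposited table of normalised values for the whole series was not used here.

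The counts were analysed in R 4.3.3 with edgeR 4.0.16. filterByExpr on the 6 libraries left 14628 genes, with a limit of about 0.243 CPM. Libraries were scaled with TMM factors, and groups were compared with a quasi-likelihood F-test without a block, at a common biological coefficient of variation of 0.0567. Benjamini-Hochberg correction ran over the 14628 genes, and genes under 0.05 were called. The SE was worked back from F and the log2 change and is approximate. CPM values are levels on TMM-scaled library sizes over all 12 libraries, with no test. Counts of 3 or fewer per group were treated as not detected, which covers counting error only. The scripts were tested on simulated data.

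Genes named are the 15 with the largest change in each direction among called genes with a mean of at least 5 CPM and no overlap, the 6 per direction with the largest difference in CPM, up to 4 per direction in each of 29 gene lists with a mean of at least 1 CPM, the AKT and EZH genes, and 5 nearest to no change at 100 CPM or more. Some genes that the rule names are not reported here. The lists and this rule were chosen with earlier results of these data known. Promoters are those of RefSeq on GRCh38.p14, matched by symbol. The motifs TCACGTGA and TCACNCCAC were also searched on both strands, and in the FOXO-induced list 0 of 28 promoters held either, against 1.04% and 1.15% of all promoters. For the autophagy, sterol and 15-gene lists under 80% of members could be matched, so that check is void. Alternatives were RLE factors, library totals, DESeq2 1.42.0, no filter, a fit of all 12 libraries, a replicate block, thinning to 22355242 counts, a test against a 1.5-fold change and leaving out each library.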

Additional observations from a re-analysis of the deposited data

Results flagged for a closer look

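The share of reads that fell in no annotated gene is a value outside the gene counts. This share was above that of the DMSO libraries in both groups with ipatasertib, and below it with tazemetostat alone. It was 24.6% ± 0.961 (SD, n = 3) with ipatasertib, 18.4% ± 0.501 with tazemetostat, 23.8% ± 0.923 with the combination and 19.7% ± 0.764 with DMSO, and the libraries with ipatasertib and tazemetostat did not overlap.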

How the results depend on the processing

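Counts of genes called, higher, lower and over 2-fold apart stayed within 1.5 times the reported ones in every alternative but the test against a 1.5-fold change, which called 1724 genes, 741 higher and 983 lower with ipatasertib. That test asks for a larger difference by construction. The other alternatives called 7884 to 9749 genes, the most without tazemetostat A, and no gene called in both the reported fit and an alternative changed direction. DESeq2 called 8257 genes, of which 8061 were shared. Leaving out 1 library gave 7884 to 9749. Same-letter correlations of deviations were -0.01, -0.08 and 0.10, and those of different letters lay between -0.10 and 0.13. With 3 libraries per group these cannot settle whether the letters pair the samples. With the letter as a replicate block 8673 genes were called, 8558 of them shared. Of 230 genes named by the rule, 216 kept their call in every alternative apart from the 1.5-fold test and none reversed. Fitting all 12 libraries gave 8380 calls, of which 43.7% were higher, with 1 PRC2 gene, 3 metalloproteinase inhibitors or IGF-binding proteins, 5 YAP and TEAD targets and 2 interferon-stimulated genes higher and 3 guanylate-binding proteins lower. DESeq2 and the fit without a filter each gave 2 guanylate-binding proteins lower, and thinning gave 2 ribosome biogenesis genes higher. Depth limits the low end, where the ipatasertib libraries are shallower than the tazemetostat libraries, and thinning, the alternative in which genes over 4-fold apart were counted again, gave 255 over 4-fold lower.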

Other observations

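Large differences were more frequent among genes of low level. Of 3657 tested genes with the lowest means, up to 4.55 CPM, 300 genes were over 2-fold higher with ipatasertib and 629 over 2-fold lower, and of the 3657 with the highest means, from 68.1 CPM, 46 were higher and 22 lower. Of the genes of low level, 100 of the 300 and 369 of the 629 passed the filter on low counts only through the group where they were high and had to differ. By libraries rather than by test, 4155 genes (28.4%) had all ipatasertib libraries above all tazemetostat libraries, 5246 (35.9%) had all below, and 5227 overlapped, on CPM scaled over 12 libraries.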
